A study of Mus musculus with 12 samples.

Results

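The chemokine ligand genes are the rows of the expression table whose symbol begins with Ccl, Cxcl, Cx3cl or Xcl followed by a number and, at most, 1 letter. This rule found 37 genes among the 34348 in the table, of which 22 are CC ligands, 13 CXC ligands, 1 a CX3C ligand (Cx3cl1) and 1 a C ligand (Xcl1). Pf4 and Ppbp, the platelet CXC chemokines, carry other names and are not members. Expression was measured by RNA sequencing of total RNA from liver and small intestine of C57BL/6 mice, in 4 groups of 3 libraries: liver from LCWE mice, liver from mice given phosphate-buffered saline (PBS), small intestine from LCWE mice, and small intestine from PBS mice. LCWE is not written out in the labels. It commonly stands for Lactobacillus casei cell wall extract, which is injected into mice to cause a Kawasaki disease-like vasculitis. The dose, route, time after injection, age and sex are not given in the sources used here, and the treated columns of the authors' differential table are named LCWECFA, in which CFA is not explained. An effect of LCWE here therefore means the difference between the labelled groups. Nothing in the labels says that the libraries came from separate animals, so the p-values measure the spread between these libraries, which may be technical in part.

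Chemokines are small secreted proteins that draw leukocytes along a gradient through G protein-coupled receptors, and most of them are named by the spacing of their first cysteines. Inflammatory ligands are made on demand by macrophages, endothelium and parenchymal cells after interferon or NF-kB signalling, whereas homeostatic ligands are made steadily and place lymphocytes in tissues and lymphoid organs. In the small intestine, Ccl25 brings CCR9+ lymphocytes to the epithelium and Ccl28 attracts CCR10+ cells that make IgA. In inflamed liver, Cxcl1 is known to draw neutrophils, Ccl2 monocytes, and Cxcl9 and Cxcl10 T cells and natural killer cells.

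The values are RPKM, reads per kilobase of gene length, normalised to library size. Of the 37 genes, 15 reached an RPKM of 0.5 in 3 or more of the 6 liver libraries and 22 in 3 or more of the 6 intestinal libraries. Of these, 13 did so in both tissues, 2 in liver only (Ccl27a and Ccl24), 9 in intestine only, and 13 genes in neither. Only genes that passed this filter in a tissue were tested there. In liver, 11 of the 15 reached 0.5 in every PBS library, and the other 4 (Ccl2, Cxcl10, Cxcl14 and Ccl21a) did not. In intestine, 17 of the 22 did, and the other 5 were Xcl1, Ccl2, Ccl3, Cxcl1 and Ccl22. A gene that passed only through its higher group had to differ, so the counts below describe the genes that passed and not all 37.

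Between 34741958 and 44921885 reads per liver library and between 30294594 and 40253006 per intestinal library were assigned to genes. Alb, the hepatocyte albumin gene, had an RPKM of 10519 to 23556 in liver and 51.6 to 145 in intestine, and Fabp2, the enterocyte fatty acid binding protein gene, had 38.6 to 113 in liver and 676 to 9408 in intestine. The libraries thus carried the markers of their labelled tissue. The liver libraries of LCWE mice had more transcript of several leukocyte markers, where 3.39% of all genes tested in liver passed as higher. Only listed markers that passed the filter were tested, and LCWE libraries alone could meet it. Those passing as higher were 9 of 14 tested monocyte and macrophage markers (17 listed) and 3 of 4 neutrophil markers (12 listed). So were 3 of 6 T and natural killer cell markers (16 listed) and 2 of 3 dendritic cell markers (8 listed). Of 4 tested B and plasma cell markers (10 listed), 2 passed as higher and 1 had an estimate below 0. These lists were chosen with results of these data known. In bulk tissue, more cells of a type and more RNA per cell cannot be told apart.

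Many of the ligand genes lie in clusters, and others, such as Cxcl16 on chromosome 11, lie apart. On mouse genome build mm10, chromosome 11 holds 12 of the 37, chromosome 5 holds 10, chromosome 4 holds 5 and chromosome 8 holds 4. Chromosomes 1 and 13 hold 2 each, and chromosomes 6 and 7 hold 1 each. All 37 symbols matched GENCODE release M21 with an overlap on the same strand, and 36 are annotated there as protein coding. The exception is Cxcl11, a polymorphic pseudogene in this annotation. The CC ligands on chromosome 11 lie in 2 groups. The first runs from Ccl2 (82035571 to 82037453) to Ccl1 (82176657 to 82305690). The other runs from Ccl5 (83525778 to 83530518) to Ccl4 (83662584 to 83664683). On chromosome 5, the ligands of the neutrophil receptor CXCR2 sit together, with Cxcl1 at 90891241 to 90893115 and Cxcl2 at 90903871 to 90905938. The ligands of the interferon-linked receptor CXCR3 form a second group there, with Cxcl9 at 92321347 to 92328079, Cxcl10 at 92346638 to 92348889 and Cxcl11 at 92359544 to 92365485.

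The promoters of 4 ligands on chromosome 5 are printed because these neighbours behaved differently in liver: Cxcl9 and Cxcl10 rose, Cxcl1 was higher in every LCWE library than in any PBS library without passing the test, and its neighbour Cxcl2 had few reads. Each is the 250 bases before the RefSeq transcription start (GRCm38.p6), 5′ to 3′ on the gene's strand, with capitals marking matches on either strand to an NF-kB motif (GGG, any 3 bases, TTCC), an interferon-stimulated response element (GAAA, any 2 bases, GAAA) or a STAT element (TTC, any 3 bases, GAA). They span chr5:92328080-92328329 (minus strand) for Cxcl9, chr5:92348890-92349139 (minus) for Cxcl10, chr5:90890995-90891244 (plus) for Cxcl1 and chr5:90903649-90903898 (plus) for Cxcl2.
Cxcl9: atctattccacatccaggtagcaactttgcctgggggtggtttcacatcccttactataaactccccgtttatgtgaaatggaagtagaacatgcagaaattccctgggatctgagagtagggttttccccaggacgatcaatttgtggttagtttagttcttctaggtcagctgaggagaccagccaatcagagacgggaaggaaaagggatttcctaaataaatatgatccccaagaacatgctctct
Cxcl10: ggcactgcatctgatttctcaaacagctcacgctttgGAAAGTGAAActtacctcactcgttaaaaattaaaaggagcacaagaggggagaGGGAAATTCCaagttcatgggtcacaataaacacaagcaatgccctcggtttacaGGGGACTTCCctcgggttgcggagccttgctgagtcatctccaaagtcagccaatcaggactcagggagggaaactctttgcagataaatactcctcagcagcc
Cxcl1: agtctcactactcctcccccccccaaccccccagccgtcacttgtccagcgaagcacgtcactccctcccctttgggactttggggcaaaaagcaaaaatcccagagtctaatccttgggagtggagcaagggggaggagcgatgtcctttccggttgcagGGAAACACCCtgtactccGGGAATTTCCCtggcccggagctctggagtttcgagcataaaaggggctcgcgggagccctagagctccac
Cxcl2: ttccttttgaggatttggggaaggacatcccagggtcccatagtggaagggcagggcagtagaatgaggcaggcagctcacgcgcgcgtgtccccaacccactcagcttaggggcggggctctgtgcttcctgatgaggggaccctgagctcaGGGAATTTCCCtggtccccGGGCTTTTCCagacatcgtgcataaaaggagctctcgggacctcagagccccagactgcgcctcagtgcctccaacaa
The Cxcl10 window held 1 match to the interferon element and 2 to the NF-kB motif, and the Cxcl1 and Cxcl2 windows each held NF-kB matches, which overlap in the longest capital runs. None of the 3 motifs was found in the Cxcl9 window. RefSeq starts were matched for 27 of the 37 ligand genes, with 33 starts in all. The NF-kB letters were present before 7 of these 33 starts (of Ccl1, Ccl20, Ccl9, Cxcl1, Cxcl10, Cxcl2 and Cxcl3) and before 4.65% of 32851 RefSeq starts of all genes. The interferon element was present before 3 of the 33 (of Ccl19, Cxcl10 and Cxcl14) and before 2.98% of all starts. The STAT element was present before 2 of the 33 (of Ccl17 and Cxcl14) and before 7.02% of all starts. A match describes letters in this window and is not a measured binding site.

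The first comparison asked which ligands differ in liver between LCWE and PBS mice. Of the 15 ligands tested, 4 rose in LCWE liver and none fell: Cxcl9, Cxcl10, Ccl2 and Cxcl16. Among all 14404 genes tested in liver, 4.04% passed, 3.39% as higher and 0.646% as lower. Of the 15 estimates, 12 were above 0, and the median log2 difference of the 15 was 0.71, beside 0.06 for all genes tested; 11 estimates were above 0 under median-ratio and 10 under quantile scaling. The groups did not overlap for 5 of the 15 ligands, all higher in LCWE liver. Of all genes 27.5% did not overlap, 18.7% as higher and 8.84% as lower. Cxcl10 and Ccl2, which were called and are among the 5, passed the filter only through their LCWE libraries. The filter thus fixed their direction and lack of overlap, which are no support for a difference. An unadjusted p below 0.05 was found for 8 of the 15 ligands and for 18.7% of all genes. By voom on recovered reads 3 ligands passed, beside 5.07% of all genes, and in 1 fit over the 4 groups 5 did, beside 6.85%. Each fold was computed after adding 0.5 to the RPKM, so folds of weakly expressed ligands are too small, and tests are limma with Benjamini-Hochberg adjustment over all genes.

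The clearest liver difference was that of a CXCR3 ligand, Cxcl9. Cxcl9, an interferon-gamma-induced attractant of T cells and natural killer cells, had 25.5, 23.5 and 22.7 RPKM in LCWE livers, against 3.62, 6.54 and 5.30 in PBS livers. Every LCWE library lay far above every PBS library. The means were 23.9 ± 1.46 RPKM in LCWE livers and 5.15 ± 1.47 in PBS livers (SD, n = 3 each), a 4.42-fold difference (log2 2.14 ± 0.20 SE, limma adjusted p = 0.00557). Cxcl9 passed with any 1 of the 6 libraries left out. It was the second most abundant ligand by mean RPKM in LCWE liver, after Cxcl1, and the fourth in PBS liver.

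Cxcl10, induced by interferons of both types and also through NF-kB, was much less abundant. It had 1.21, 0.949 and 1.28 RPKM in LCWE livers, against 0.318, 0.198 and 0.497 in PBS livers, from 96 to 103 reads per LCWE library and 16 to 44 per PBS library. The groups did not overlap, which the filter had fixed, and the log2 difference was 0.98 ± 0.17 (SE, limma adjusted p = 0.0327). Without PBS replicate 3 the adjusted p was 0.0987, and with any LCWE library left out Cxcl10 no longer passed the filter. Cxcl11, the third CXCR3 ligand, had 1.10, 1.45 and 0.956 RPKM in LCWE livers, against 1.25, 1.19 and 0.751 in PBS livers. Its groups overlapped and it did not pass (limma adjusted p = 0.816). The neighbouring genes Cxcl9, Cxcl10 and Cxcl11 thus gave 2 rises and 1 gene with no detectable difference in the same livers.

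**Figure D1:**
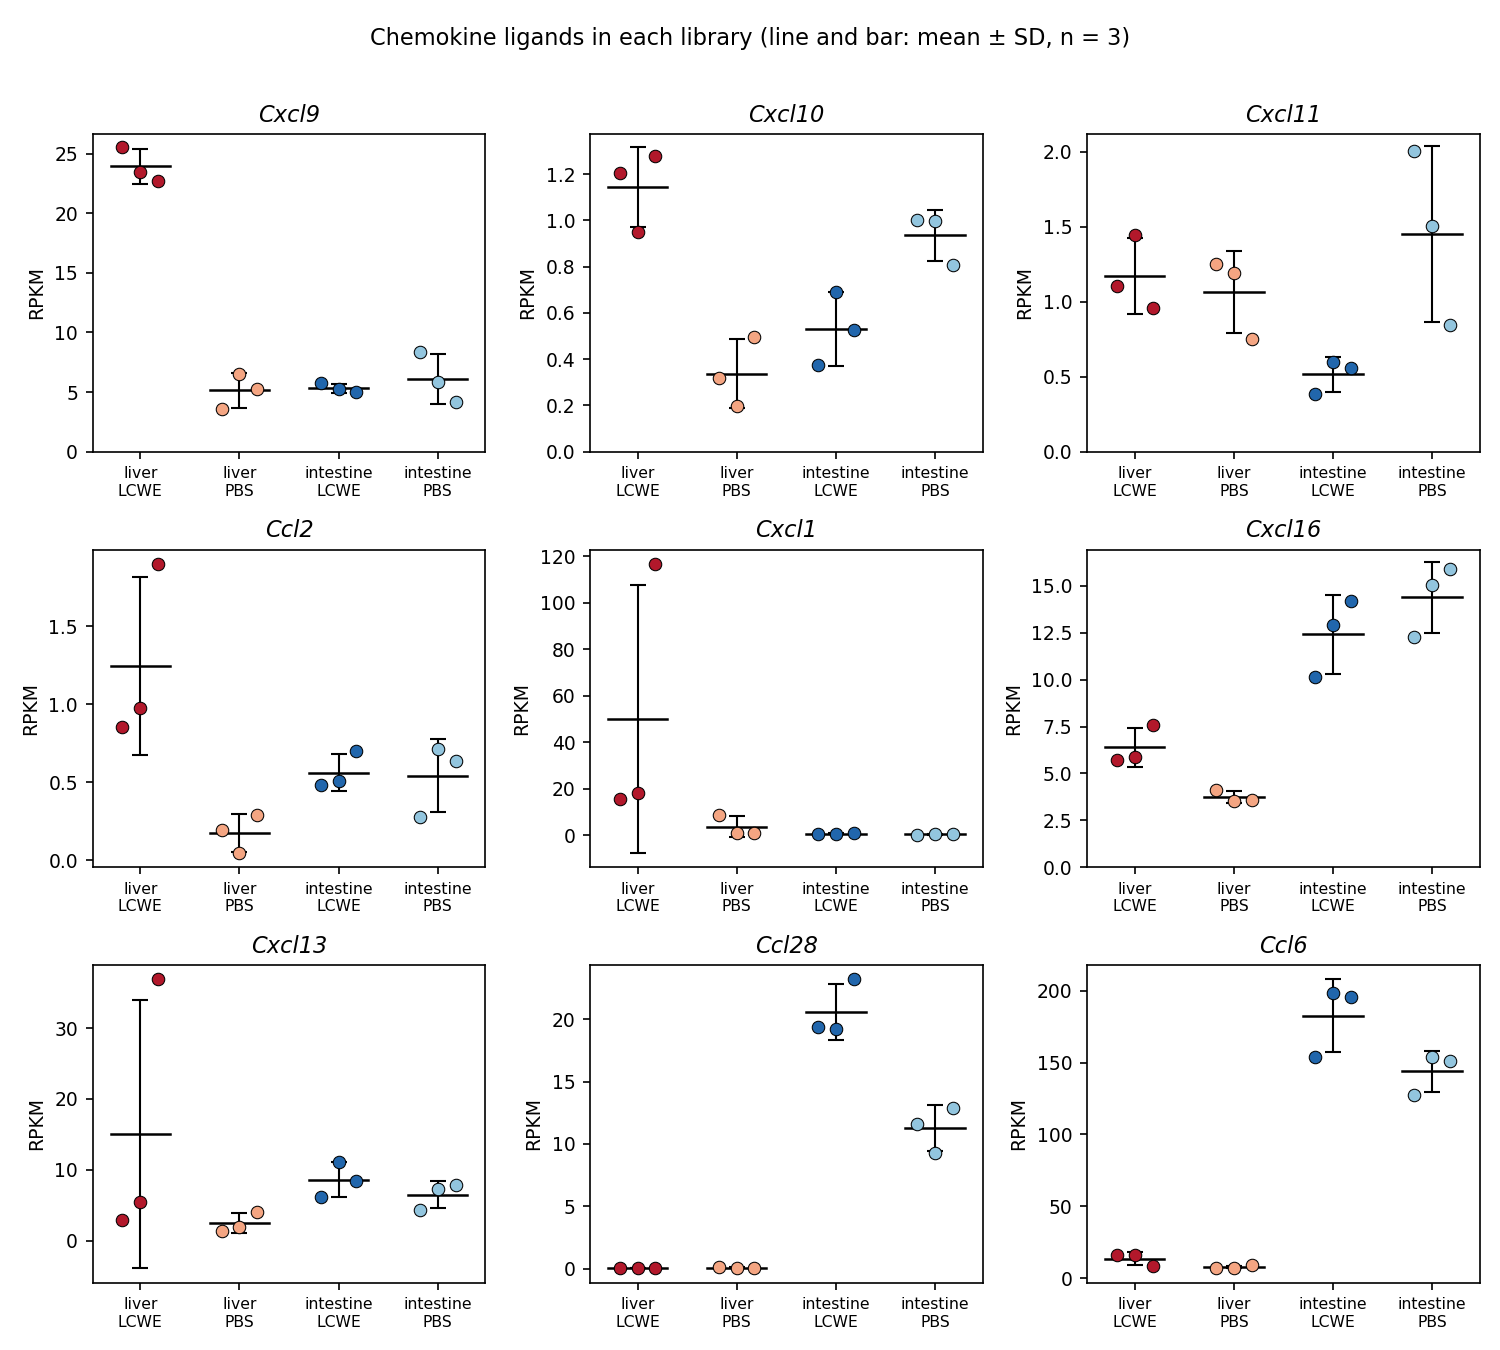
RPKM (linear vertical axes, each panel with its own scale) of 9 ligands in every library of the 4 groups, with the mean as a line and the SD of 3 libraries as a bar. The 3 LCWE livers stand apart from all other libraries for Cxcl9, between 22.7 and 25.5 RPKM, while a single LCWE liver at 117 RPKM carries most of the Cxcl1 mean.

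Ccl2, the main ligand of the monocyte receptor CCR2, had 0.857, 0.978 and 1.90 RPKM in LCWE livers, against 0.197, 0.0490 and 0.290 in PBS livers. These values rest on 37, 50 and 75 reads in LCWE livers, against 10, 2 and 13 in PBS livers. The groups did not overlap, which the filter had likewise fixed (log2 difference 1.33 ± 0.25 SE, limma adjusted p = 0.0416). Ccl2 did not pass when any single PBS library was left out, with adjusted p-values of 0.0804 without replicate 4, 0.0595 without replicate 2 and 0.128 without replicate 3, and it missed the filter without any LCWE library. The other CCR2 ligands were near 0 in liver. Ccl7 had 0, 2 and 4 reads and Ccl12 had 0, 0 and 9 reads in LCWE livers, against no read of either gene in PBS livers.

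Cxcl16, made as a membrane-anchored protein that binds CXCR6 and can be shed, had 5.74, 5.86 and 7.57 RPKM in LCWE livers, against 4.12, 3.55 and 3.59 in PBS livers. The groups did not overlap, at means of 6.39 ± 1.03 RPKM in LCWE livers and 3.75 ± 0.320 in PBS livers (SD, n = 3 each), and the log2 difference was 0.69 ± 0.14 (SE, limma adjusted p = 0.0457). The call held without PBS replicate 2 and was lost without any other library, with adjusted p-values of 0.142, 0.164 and 0.108 without LCWE replicates 1, 2 and 4, and of 0.151 and 0.135 without PBS replicates 3 and 4. Cx3cl1, the other membrane-anchored ligand, stayed below the filter in liver at 0.103 to 0.142 RPKM in LCWE livers, against 0.0284 to 0.120 in PBS livers.

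The CXCR2 ligands were dominated by Cxcl1. Cxcl1, a neutrophil attractant and an acute phase product of the liver, had 15.4, 18.3 and 117 RPKM in LCWE livers, against 8.78, 0.893 and 1.08 in PBS livers. The groups did not overlap, but each contained a library far from the other 2: LCWE replicate 4 at the top and PBS replicate 2 at 8.78 RPKM. The estimate was the largest of the 15 ligands, 11.9-fold or 3.58 ± 0.99 on the log2 scale (SE), and it did not pass (limma adjusted p = 0.105). It passed when PBS replicate 2 was left out (log2 difference 4.46, adjusted p = 0.0456), and in a fit over all 4 groups together (adjusted p = 0.0174). That fit estimates the spread from both tissues, and the SE of Cxcl1 was 0.19 in intestine, beside 0.99 in liver. The intestinal values, near the added 0.5, thus bring a small spread into it. Without LCWE replicate 4 the log2 difference was 2.66 (adjusted p = 0.205). In the authors' deposited table Cxcl1 is listed at a log2 fold change of 3.90 and a false discovery rate of 0.0487.

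LCWE liver replicate 4, highest for Cxcl1, also had the highest summed level of the 17 monocyte and macrophage markers, 755 RPKM against 441 and 527 in the other LCWE livers and 199 to 249 in PBS livers. Its neutrophil marker sum, 18.2 RPKM, was the lowest of the LCWE livers, which otherwise had 22.5 and 41.8. PBS liver replicate 2, highest of the PBS livers for Cxcl1, also had the highest PBS neutrophil sum, at 4.64 RPKM against 1.71 and 2.37. The part of these cell types in the Cxcl1 values was not tested. The other CXCR2 ligands were scarce: Cxcl2 had 22, 8 and 20 reads in LCWE livers, against 10, 4 and 9 in PBS livers, Cxcl5 had 2 to 12 reads in LCWE livers, against 1 to 3 in PBS livers, and Cxcl3 had 2 reads in 1 LCWE liver only.

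**Figure D2:**
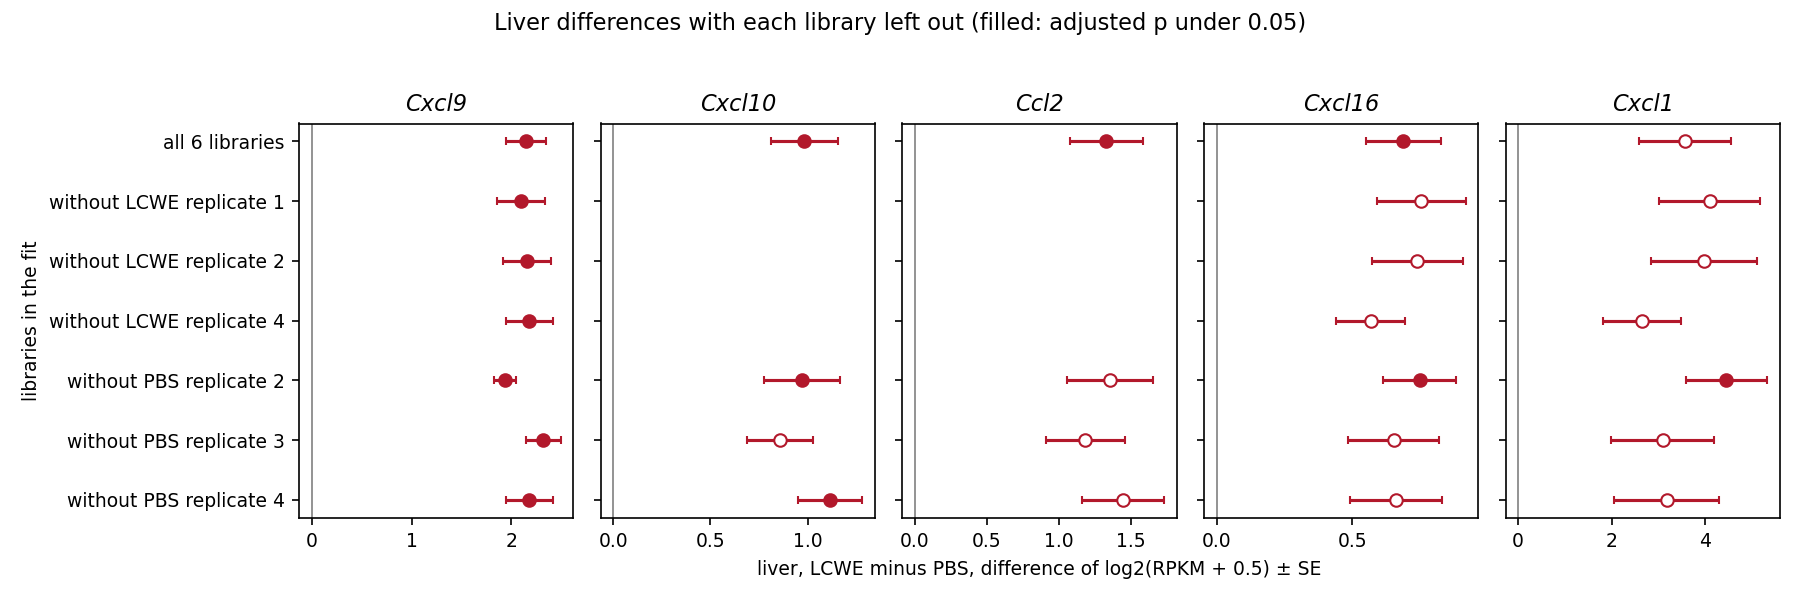
Log2 differences (horizontal axes, log2(RPKM + 0.5), LCWE minus PBS in liver, bars are SE) of 5 ligands with all 6 libraries and with each library left out in turn, filled where the adjusted p was below 0.05. Cxcl9 is filled in every row, and Cxcl10 and Ccl2 have no point in the 3 rows without an LCWE library because they then missed the filter.

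Ccl6 and Ccl9 are CCR1 ligands found in mice. Ccl6 had 16.3, 15.9 and 8.45 RPKM in LCWE livers, against 7.24, 7.23 and 8.83 in PBS livers. LCWE replicates 1 and 2 lay above all PBS livers while replicate 4 lay among them. The gene did not pass (log2 difference 0.71 ± 0.25 SE, limma adjusted p = 0.195), and without LCWE replicate 4 it did (adjusted p = 0.0392). Ccl9 had 13.3, 13.1 and 14.4 RPKM in LCWE livers, against 17.5, 12.02 and 11.7 in PBS livers, with overlapping groups (limma adjusted p = 0.980).

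The homeostatic ligands of liver gave mixed patterns. Cxcl12, which retains CXCR4+ cells and is abundant in liver, had 17.5, 20.1 and 18.5 RPKM in LCWE livers, against 20.3, 18.2 and 18.5 in PBS livers. These groups overlapped almost fully (limma adjusted p = 0.933). Cxcl13, the CXCR5 ligand that gathers B cells, had 2.84, 5.38 and 36.9 RPKM in LCWE livers, against 1.36, 1.89 and 4.07 in PBS livers. The groups overlapped, LCWE replicate 4 was again far above the rest, and the gene did not pass (limma adjusted p = 0.353). Ccl21a, a CCR7 ligand that guides T cells and dendritic cells, had 1.82, 2.15 and 0.860 RPKM in LCWE livers, against 0.669, 0.321 and 0.935 in PBS livers, and did not pass (log2 difference 0.87 ± 0.31 SE, limma adjusted p = 0.195).

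Cxcl14, a ligand made by epithelium and stroma, had 2.62, 2.15 and 1.2 RPKM in LCWE livers, against 1.41, 0.459 and 0.349 in PBS livers. LCWE replicate 4 lay below PBS replicate 2, and the gene did not pass (log2 difference 1.06 ± 0.36 SE, limma adjusted p = 0.179), though it did without PBS replicate 2 (adjusted p = 0.0419). The eosinophil attractant Ccl24, the CCR10 ligand Ccl27a and the CCR9 ligand Ccl25 had overlapping groups in liver and did not pass, at 0.867 to 3.74, 0.687 to 0.946 and 1.39 to 1.60 RPKM in LCWE livers, against 1.49 to 2.21, 0.899 to 1.29 and 1.27 to 1.66 in PBS livers.

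Below the filter in liver were 22 ligands, 21 of them with at least 1 read. For 5 of these 21 the groups did not overlap with LCWE higher, and for 1, Ccl28, with LCWE lower; among all genes below the filter with at least 1 read, 9.94% did not overlap as higher and 2.71% as lower. These 6 genes were chosen after their values were seen. Ccl8, a ligand of CCR8 in mice, had 6, 7 and 4 reads in LCWE livers, against none in any PBS liver. Set against a floor of 3 reads per PBS library, it was at least 1.89-fold higher in LCWE liver. Ccl8 also passed in a fit with no filter (limma adjusted p = 0.0189). The PBS livers, without a read, bring no spread into that fit. The LCWE values, 0.225 to 0.309 RPKM, lie below the constant added to each RPKM before the log. The small SE of 0.06 thus comes from values near the floor, and this pass is weak support for a difference. The share of all genes passing with no filter is not given here. Xcl1, the lymphocyte-made ligand of cross-presenting dendritic cells, had 9, 11 and 8 reads in LCWE livers, against 2, 4 and 3 in PBS livers. Ccl3, a macrophage inflammatory protein, had 10, 21 and 12 reads in LCWE livers, against 2, 2 and 6 in PBS livers. Ccl5, an attractant of T cells, had 24, 25 and 13 reads in LCWE livers, against 10, 4 and 12 in PBS livers. Ccl19, a CCR7 ligand, had 16, 13 and 8 reads in LCWE livers, against 6, 0 and 4 in PBS livers. None of Xcl1, Ccl3, Ccl5 and Ccl19 passed without the filter, with limma adjusted p-values from 0.0700 to 0.206.

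**Figure D3:**
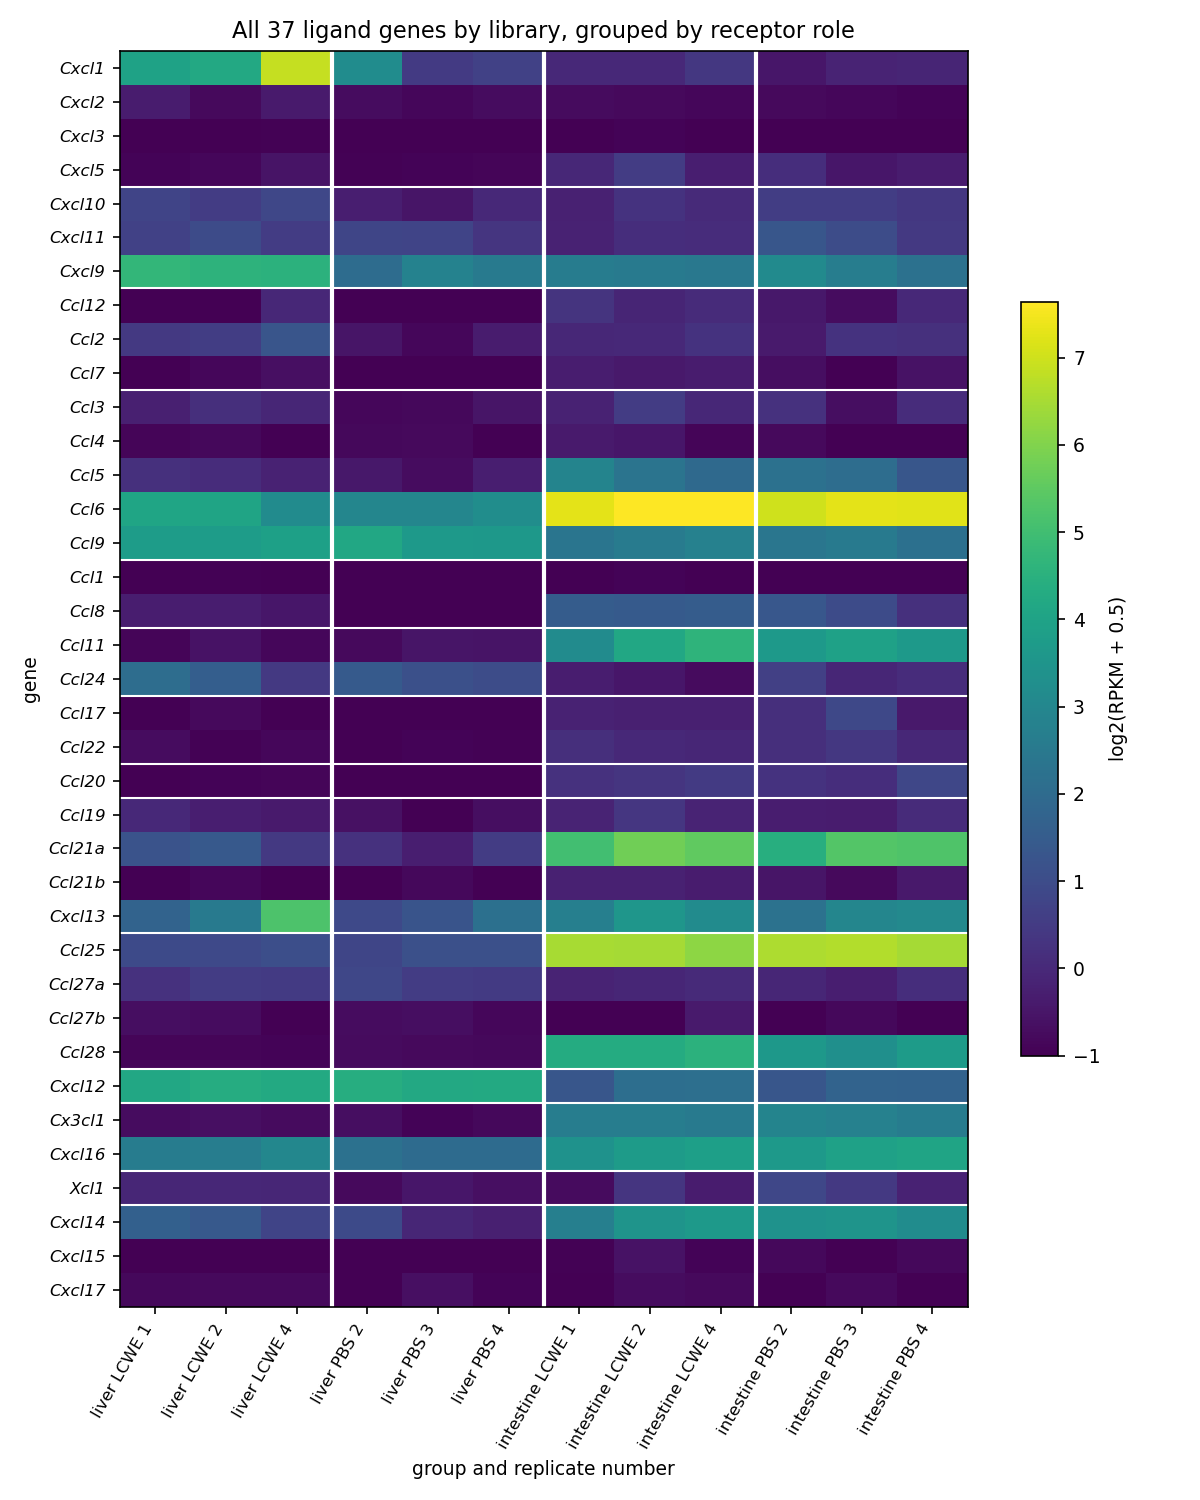
Log2(RPKM + 0.5), as colour, of all 37 ligand genes (rows, grouped by receptor role) in the 12 libraries (columns, LCWE before PBS and liver before intestine). Bright intestinal rows are Ccl6, Ccl25 and Ccl21a, and in liver the Cxcl9 row is brighter in the 3 LCWE libraries than in the 3 PBS libraries.

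Summed over all 37 genes, ligand RPKM was 113, 118 and 238 in LCWE livers, against 72.6, 58.1 and 61.3 in PBS livers. Cxcl1 made up 49.0% of the sum in LCWE liver replicate 4. In PBS livers the largest share was that of Cxcl12, at 27.9% to 31.3%. In intestine the sums were 362, 450 and 430 RPKM in LCWE libraries, against 332, 383 and 363 in PBS libraries, of which Ccl6 made up 38.5% to 45.5% over both groups.

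In the small intestine no ligand passed. Of the 22 tested, 0 were called, as were 0.0% of the 17510 genes tested with limma, and 0 were called by voom on recovered reads. An unadjusted p below 0.05 was found for 4 ligands (Ccl28, Cxcl11, Cxcl10 and Ccl6) and for 12.6% of all genes. The groups did not overlap for 5 of the 22, with Ccl28, Ccl8 and Cxcl1 higher and Cxcl10 and Cxcl11 lower in LCWE intestine, while 19.3% of all genes did not overlap, 13.2% as higher and 6.15% as lower. Cxcl1 passed the filter only through its LCWE libraries, so its lack of overlap was fixed and is no support for a difference. The median log2 difference of the 22 was 0.13, beside 0.11 for all genes tested.

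Ccl28, the mucosal CCR10 ligand, had the smallest p. It had 19.4, 19.2 and 23.2 RPKM in LCWE intestines, against 11.6, 9.26 and 12.9 in PBS intestines. The groups were well separated, at means of 20.6 ± 2.24 RPKM in LCWE intestines and 11.3 ± 1.84 in PBS intestines (SD, n = 3 each), and the log2 difference of 0.85 ± 0.14 (SE) had a limma adjusted p of 0.186. In 1 fit over the 4 groups, where the spread is estimated from both tissues, the limma adjusted p was 0.0151 and 1.39% of all genes passed. Ccl28 is near 0 in liver, where its SE with no filter was 0.04, beside 0.14 in intestine. The liver libraries thus bring a small spread into that fit, which comes from values near the added 0.5. Ccl25, the other mucosal homing ligand, had 91.3, 89.0 and 71.6 RPKM in LCWE intestines, against 94.1, 98.5 and 88.4 in PBS intestines, and its groups overlapped (limma adjusted p = 0.545).

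None of the 3 CXCR3 ligands passed in intestine. Cxcl10 had 0.375, 0.691 and 0.524 RPKM in LCWE intestines, against 1.0, 0.998 and 0.806 in PBS intestines (log2 difference -0.49 ± 0.16 SE, limma adjusted p = 0.335). For Cxcl11 the values were 0.386, 0.600 and 0.560 RPKM in LCWE intestines, against 2.01, 1.51 and 0.844 in PBS intestines (log2 difference -0.90 ± 0.25 SE, limma adjusted p = 0.269), and the authors' deposited table lists Cxcl11 at a log2 fold change of -1.40 with a false discovery rate of 0.479. Neither group pair overlapped and neither gene passed. Cxcl9 had 5.75, 5.23 and 5.01 RPKM in LCWE intestines, against 8.34, 5.86 and 4.14 in PBS intestines, so the LCWE values lay inside the PBS range (limma adjusted p = 0.778).

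Ccl6, the most abundant ligand of the intestine, had 154, 199 and 196 RPKM in LCWE intestines, against 128, 154 and 151 in PBS intestines, with groups that overlap only at 154 RPKM (log2 difference 0.34 ± 0.14 SE, limma adjusted p = 0.395). Cxcl1 was scarce in this tissue, at 0.503, 0.507 and 0.819 RPKM in LCWE intestines, against 0.224, 0.400 and 0.423 in PBS intestines. Ccl8 had 2.33, 2.26 and 2.37 RPKM in LCWE intestines, against 2.05, 1.47 and 0.646 in PBS intestines. Neither passed, although their groups did not overlap (limma adjusted p = 0.443 for Cxcl1 and 0.404 for Ccl8). Cxcl1 met the intestinal filter only through its LCWE libraries, so the filter had fixed its direction and lack of overlap. The intestinal libraries also differed in epithelial transcripts: the summed level of 7 enterocyte markers was 1364 to 5053 RPKM in LCWE intestines, against 8253 to 17598 in PBS intestines, with 0 of the 7 passing. Whether this has a part in the ligand values was not tested.

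The remaining intestinal ligands had overlapping groups. The CCR7 ligand Ccl21a had 32.4 to 53.6 RPKM in LCWE intestines, against 20.7 to 39.8 in PBS intestines, and the eosinophil attractant Ccl11 had 8.40 to 24.1 in LCWE intestines, against 11.98 to 14.9 in PBS intestines. The membrane-anchored Cxcl16 and Cx3cl1 had 10.1 to 14.2 and 5.23 to 5.87 RPKM in LCWE intestines, against 12.3 to 15.9 and 5.71 to 6.88 in PBS intestines. Ccl20, the CCR6 ligand of follicle-associated epithelium, had 0.664 to 0.873 RPKM in LCWE intestines, against 0.593 to 1.30 in PBS intestines. Of the 15 ligands below the filter here, Ccl7 and Ccl21b were higher and Ccl24 lower in LCWE intestine without overlap, beside 4.73% and 2.85% of all genes below the filter with at least 1 read; Ccl7 had 10, 7 and 8 reads in LCWE intestines, against 4, 0 and 4 in PBS intestines.

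**Figure D4:**
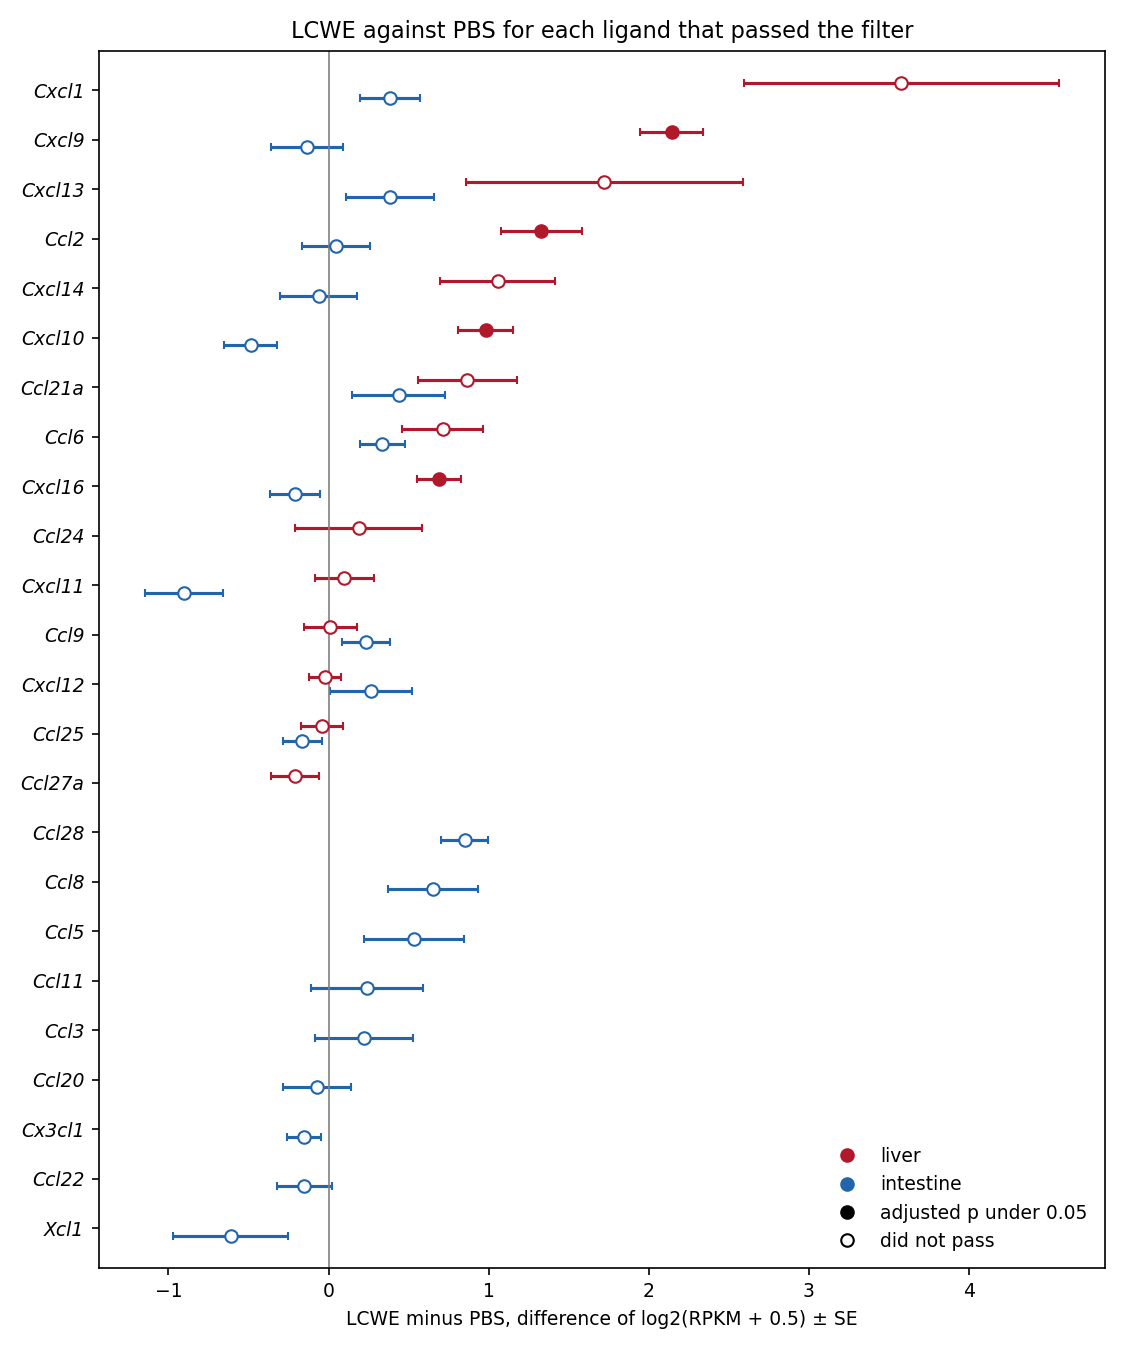
Difference of log2(RPKM + 0.5), LCWE minus PBS, with SE, for each ligand that passed the filter in liver (red) or intestine (blue), filled where the adjusted p was below 0.05. The 4 filled points are Cxcl9, Ccl2, Cxcl10 and Cxcl16 in liver, and no intestinal point is filled.

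Whether LCWE acted differently in the tissues was tested as the liver difference minus the intestinal difference. Of 24 ligands tested, 3 passed, beside 0.77% of 18444 genes, of which 0.558% were higher and 0.211% lower: Cxcl9 and Cxcl10 with the higher difference in liver, and Ccl28 with the lower. For Cxcl9 the gap was 2.28 ± 0.32 on the log2 scale (SE, limma adjusted p = 0.0170), made of a 2.14 rise in liver and an intestinal difference that did not pass. For Cxcl10 it was 1.47 ± 0.23 (SE, limma adjusted p = 0.0219), with LCWE values above PBS values in liver and below them in intestine, without overlap in either tissue. Ccl28 had a gap of -0.97 ± 0.18 (SE, limma adjusted p = 0.0376). In liver it was barely present, at 4 to 8 reads in LCWE livers, against 11 to 17 in PBS livers. The small spread of these liver values also enters this fit. The Cxcl9 call was lost without PBS intestine replicate 3 (adjusted p = 0.0512), and the Cxcl10 call without LCWE intestine replicate 4, PBS intestine replicate 3, LCWE liver replicate 1 or PBS liver replicate 3 (adjusted p from 0.0580 to 0.0690). For Ccl28 the call held without LCWE intestine replicate 1, PBS intestine replicate 4 or PBS liver replicate 2, and was lost without any other library, with no filter (adjusted p = 0.0570) and with voom on recovered reads, where the gap was -1.92 (adjusted p = 0.127). Ccl2 (log2 gap 1.28 ± 0.34 SE, limma adjusted p = 0.109) and Cxcl16 (0.90 ± 0.22 SE, limma adjusted p = 0.0838) passed in liver alone, and their difference between tissues did not pass.

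The PBS groups show the resting ligand profile of each tissue. Cxcl12 led in PBS liver at 19.0 ± 1.14 RPKM, followed by Ccl9 at 13.7 ± 3.23 and Ccl6 at 7.76 ± 0.919 (SD, n = 3 each). In PBS intestine Ccl6 led at 144 ± 14.2 RPKM, followed by Ccl25 at 93.7 ± 5.05 and Ccl21a at 32.9 ± 10.5 (SD, n = 3 each). Of 24 ligands tested between these groups, 20 passed, 4 higher and 16 lower in liver. Of all genes 76.5% passed, 16.3% higher and 60.1% lower, so the ligand count lies near this share. Among the ligands that passed, Ccl24 and Ccl27a met the filter in liver only. Ccl11, Ccl28, Cx3cl1, Ccl5, Ccl22, Ccl20, Ccl8 and Xcl1 met it in intestine only. These entered through the tissue where they were higher, so the filter favoured their directions. The share of all passing genes that were higher in liver was 21.4%, and it was 46.9% under median-ratio and 50.5% under quantile scaling. The median log2 difference of all genes was -0.70 as tested, -0.08 under median-ratio and 0.01 under quantile scaling, and under these scalings the ligands that passed were 5 higher and 13 lower, and 5 higher and 12 lower in liver.

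The ligands higher in PBS liver were Cxcl12 (log2 difference 2.69 ± 0.14 SE), Ccl9 (1.45 ± 0.18), Ccl24 (0.97 ± 0.22) and Ccl27a (0.70 ± 0.16), with limma adjusted p-values of 5.21e-06, 0.000334, 0.00549 and 0.00568. Cxcl12, with the values of PBS liver given above, had 1.99, 2.88 and 2.79 RPKM in PBS intestines. Ccl9 there had 4.71, 5.25 and 4.02 RPKM. Ccl24, the eosinophil attractant eotaxin 2, had 2.21, 1.68 and 1.49 RPKM in PBS livers, against 1.05, 0.458 and 0.561 in PBS intestines. Ccl27a, which attracts CCR10+ T cells to skin, had 1.29, 0.963 and 0.899 RPKM in PBS livers, against 0.441, 0.328 and 0.597 in PBS intestines. None of these 4 pairs of groups overlapped. This does not set these ligands apart, since 76.5% of all genes passed between the PBS tissues. The share of all genes without overlap is not given here.

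Ligands of gut homing and lymphoid tissue were among those lower in PBS liver. Ccl25 had 1.27, 1.66 and 1.66 RPKM in PBS livers, against 94.1, 98.5 and 88.4 in PBS intestines, a log2 difference of -5.54 ± 0.12 (SE, limma adjusted p = 8.73e-08). Ccl21a, with the liver values above, had 20.7, 39.8 and 38.1 RPKM in PBS intestines (log2 difference -4.85). Ccl28 had 0.102, 0.0822 and 0.0749 RPKM in PBS livers, against 11.6, 9.26 and 12.9 in PBS intestines (-4.31). For the B cell attractant Cxcl13 the PBS intestines had 4.28, 7.33 and 7.84 RPKM, above all 3 PBS livers by a narrow margin (-1.31). The Cxcl13 call was lost without PBS intestine replicate 3 or 4 (limma adjusted p of 0.0508 and 0.0529), under median-ratio and quantile scaling (0.157 and 0.168), and in 1 fit over the 4 groups (0.109).

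Several leukocyte attractants followed the same direction. Ccl11, or eotaxin 1, had 0.0828, 0.206 and 0.188 RPKM in PBS livers, against 11.98, 14.9 and 11.99 in PBS intestines (log2 difference -4.35). For Ccl6 the log2 difference was -4.13. Ccl5 had 0.233, 0.116 and 0.318 RPKM in PBS livers, against 4.12, 3.71 and 1.99 in PBS intestines (-2.35). Ccl8 had no read in PBS liver and 2.05, 1.47 and 0.646 RPKM in PBS intestines (-1.84, a fitted value that depends on the added 0.5).

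The membrane-anchored ligands were also higher in PBS intestine, though Cxcl16 was present in PBS liver as well. Cx3cl1, which binds CX3CR1 on mononuclear phagocytes, had 0.120, 0.0284 and 0.0647 RPKM in PBS livers, against 6.88, 6.37 and 5.71 in PBS intestines (log2 difference -3.58). Cxcl16 had 12.3, 15.1 and 15.9 RPKM in PBS intestines (-1.80). Cxcl14 had 10.2, 10.5 and 8.66 RPKM there (-3.14).

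Among scarcer ligands, Ccl20 had no read in PBS liver and 0.700, 0.593 and 1.30 RPKM in PBS intestines (log2 difference -1.41, likewise dependent on the added 0.5). Ccl22, the CCR4 ligand made by dendritic cells, had 0, 0.0240 and 0.0219 RPKM in PBS livers, against 0.631, 0.833 and 0.469 in PBS intestines (-1.14). Xcl1 had 0.0857, 0.213 and 0.146 RPKM in PBS livers, against 1.30, 0.836 and 0.379 in PBS intestines (-0.99). The last ligands that passed, Cxcl10 (-0.79) and Ccl2 (-0.61), turned to slightly higher in liver under quantile scaling and did not pass there. For Ccl2 the PBS intestines had 0.276, 0.714 and 0.638 RPKM, which overlap the PBS livers. The Ccl2 call was lost without PBS intestine replicate 3 or 4 or PBS liver replicate 2 or 3 (limma adjusted p from 0.0729 to 0.118), with no filter (0.0592), with voom (0.0529) and under median-ratio scaling (0.249). The Cxcl10 call was also lost under median-ratio scaling (limma adjusted p = 0.0959), and the Xcl1 call under quantile scaling (limma adjusted p = 0.586). The limma adjusted p-values of these 16 ligands ranged from 8.73e-08 to 0.0381.

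Cxcl1, Ccl3, Cxcl11 and Cxcl9 did not pass between the PBS tissues. At 3.62 to 6.54 RPKM in PBS liver and 4.14 to 8.34 in PBS intestine, Cxcl9 did not differ detectably between the control tissues, while LCWE livers had 22.7 to 25.5 RPKM.

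**Figure D5:**
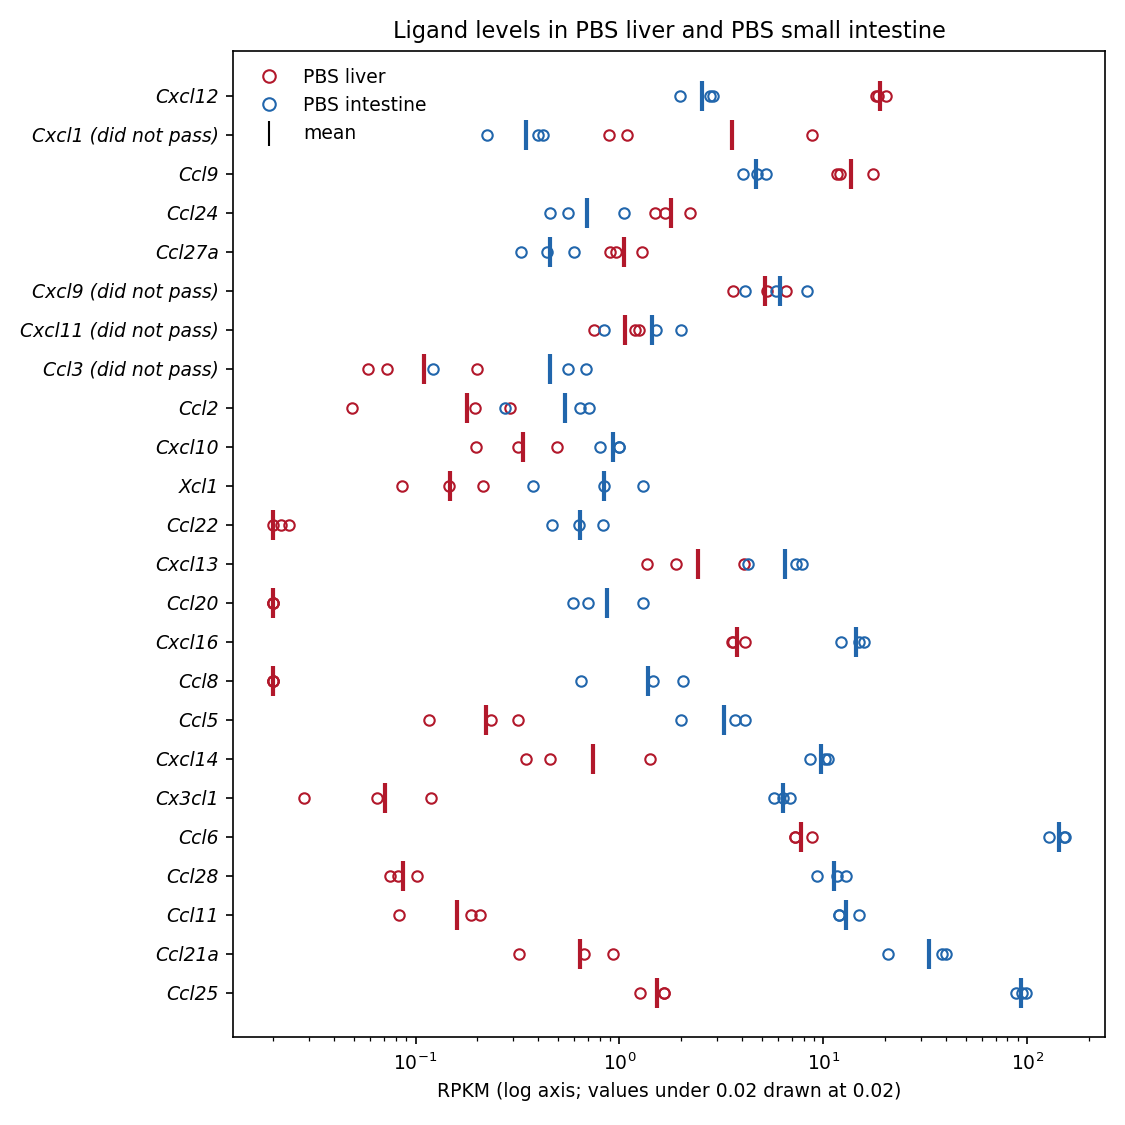
RPKM (log axis) of the 24 ligands tested between PBS liver (red) and PBS small intestine (blue), with each library as a circle and the group mean as a line, ordered by the difference. Cxcl12 lies highest toward liver and Ccl25 at the bottom, where intestinal values of 88.4 to 98.5 RPKM face liver values of 1.27 to 1.66.

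Genes that act before and after the ligands were counted from lists chosen with results of these data known. In LCWE liver the median log2 difference of all genes tested was 0.06, and 3.39% of them passed as higher. Of 15 transcription factors that induce chemokines, all 15 had estimates above 0 there, 13 under median-ratio and 14 under quantile scaling. Of the 15, 5 rose, and 3 did under either scaling. The 5 included Irf8, a myeloid and interferon-response factor (log2 difference 1.08 ± 0.16 SE, limma adjusted p = 0.0209), and Stat3, which carries IL-6 signals (0.57 ± 0.10, limma adjusted p = 0.0296). Among them were also Irf9, a subunit of the interferon-response factor ISGF3 (0.47 ± 0.09, limma adjusted p = 0.0429), and Nfkb2, an NF-kB subunit (0.71 ± 0.14, limma adjusted p = 0.0447). None of the 15 passed in intestine. For the difference between tissues 1 passed, beside 0.77% of all genes: Stat3 (0.67 ± 0.13 SE, limma adjusted p = 0.0483). Of 16 inducing cytokines listed, 15 were in the table and 3 passed the filter in liver, with 0 called. Of those below it, Ifng had 0.0437 to 0.0553 RPKM in LCWE livers, against 0 to 0.211 in PBS livers. These Ifng levels, chosen after their values were seen, overlapped.

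Most of the listed chemokine receptors missed the filter in liver, and 0 were called there. Ccr2, the receptor of Ccl2, had 0.686, 0.524 and 0.413 RPKM in LCWE livers, against 0.0828, 0.149 and 0.105 in PBS livers. Cxcr3, the receptor of Cxcl9 and Cxcl10, had 0.122, 0.180 and 0.200 RPKM in LCWE livers, against 0.0776, 0.0645 and 0 in PBS livers. Both are given after their values were seen, and neither was tested here; the authors' deposited table lists Ccr2 in liver at a log2 fold change of 2.16 and a false discovery rate of 0.00175. In intestine 11 of the 18 receptors listed passed the filter, all 11 with estimates above 0, and 0 were called. The median log2 difference of all genes tested there was also above 0, at 0.11. The 5 atypical receptors, which take up ligands without signalling to migration, and 9 genes for proteases and other ligand processing had 2 and 4 members tested in liver and 2 and 5 in intestine, with 0 called in either. Neither Pf4 nor Ppbp passed the filter in liver, and Pf4 alone did so in intestine, uncalled.

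The authors' deposited table, which lists genes by p and fold, held 7 of the 37 ligands for liver, all higher in LCWE: Cxcl9, Cxcl10, Ccl2, Cxcl1, Cxcl13, Cxcl14 and Ccl21a. There, 4 of these 7 ligands had a false discovery rate below 0.05, Cxcl9 at 0.000550, Cxcl10 at 0.00897, Ccl2 at 0.0126 and Cxcl1 at 0.0487. Its log2 fold changes were 2.27 for Cxcl9, 1.78 for Cxcl10 and 2.97 for Ccl2. For intestine the authors' deposited table listed 1 ligand, Cxcl11, and the lowest false discovery rate of any gene there was 0.469.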

How the data were processed

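Per the labels' protocols, TRIzol was used for extraction and DNase I for digestion of DNA; strandedness is unknown. The deposited RPKM values are reads per kilobase of gene, scaled by the authors to the gene-assigned reads of the library. Trimmomatic 0.36, Subread 1.5.1, featureCounts, edgeR 3.12.1 and the build mm10 are named, with no roles, per the submitters' processing notes. Of 16 library columns, 12 matched samples and 4 were not used. Reads recovered from RPKM and length were whole for 100% of nonzero values (tolerance 0.001). The authors' deposited table of comparisons gives each listed gene a p-value, a log2 fold change and a false discovery rate.

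Genes with RPKM of at least 0.5 in 3 libraries of a tissue (of either tissue, for comparisons between tissues) were tested by limma (3.58.1, R 4.3.3) after a log2 transform of RPKM + 0.5 (trended moderation, two-sided, Benjamini-Hochberg over all genes, called below 0.05). Each tissue was fitted apart, and the tissue difference in 1 fit over 4 groups. Exact permutation of 3 against 3 libraries has a smallest two-sided p of 0.1 and was not used. The procedure was run on simulated data with independent normal residuals, and its outcome is not reported here. The genes changed there had passed a filter at RPKM 1. Outlier libraries and changed genes near the filter of 0.5 were thus not covered. The ligands, gene lists, roles and alternatives were chosen with earlier results of these data known. Members called in a comparison, or with groups that do not overlap and a fold of at least 2, are given per library, the others by range or, where shown per library, after their values were seen. From each other list up to 4 called genes with the smallest p per tissue are named; Nfkb2 was added after its values were seen, and some genes are not reported here. Reads of Ccl21a and Ccl21b, Ccl27a and Ccl27b, and Ccl19 may be split or dropped between near-identical copies.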

Additional observations from a re-analysis of the deposited data

Results flagged for a closer look

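For 3 ligands the LCWE difference in liver and that in small intestine were themselves different, in limma's test of the liver difference minus the intestinal difference with 3 libraries in each of the 4 groups. Cxcl9 had a gap of 2.28 on the log2 scale, with LCWE values above PBS values in liver and inside the PBS range in intestine. The gap for Cxcl10 was 1.47. In liver all 3 LCWE libraries lay above the PBS libraries, and in intestine all 3 lay below them. Cxcl10 met the liver filter only through its LCWE libraries, so that filter fixed the liver order. Ccl28 had a gap of -0.97, with higher values in all 3 LCWE intestinal libraries. Its read numbers were 4 to 8 in LCWE livers, against 11 to 17 in PBS livers.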

How the results depend on the processing

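The number of ligands passing in liver, 4 as reported, was 2 with no filter (Cxcl9 and Ccl8), 2 with a filter at RPKM 1 (Cxcl9 and Cxcl16), 1 under quantile scaling (Cxcl9), and 1 to 5 with each library left out in turn. It was 5 in 1 fit over the 4 groups, 3 under median-ratio scaling and with voom, and 4 with pseudocounts of 0.1 and 1 and robust moderation. With the replicate number as a block, 0 passed in liver and 0 of the 3 tissue differences, and the PBS tissue gap of Ccl2 was no longer called (limma adjusted p = 0.0554). The correlation of deviations between same-numbered libraries was -0.102 and -0.0535 in liver and 0.0921 and 0.116 in intestine (2 pairs each), and between liver and intestine -0.0652 to 0.0832 over the 3 PBS pairs and 0.00594 to 0.0403 over the 3 LCWE pairs. With no label that ties the numbers to an animal or batch, they were not taken as pairs. The intestinal count of 0 became 1 (Ccl28) in 1 fit over the 4 groups, to which its liver values near 0 add little spread. The count was 0 with any library left out. The 3 tissue differences ranged from 0 to 3 with each library left out. Between the PBS tissues, Ccl2 and Cxcl10 changed sign under quantile scaling, to 0.21 and 0.042. The cause was not tested in any of these. The share of all passing liver genes that were higher was 84.0% as reported, 76.6% under median-ratio and 73.5% under quantile scaling. Leaving out 1 LCWE liver took Cxcl10 and Ccl2 below the filter, so they gave no value there. Ligands with few reads per library, such as Ccl2, Ccl8 and Xcl1 in liver, are limited by counting error. The Ccl8 pass with no filter also rests on PBS livers without a read, which have no spread.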
